A study of Mus musculus with 6 samples.

Results

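The genes described here are 10 components of the Notch signalling pathway in the embryonic whisker pad: the receptors Notch1, Notch2 and Notch3, the ligands Dll1, Jag1 and Jag2, the receptor modifier Lfng, and the transcriptional targets Hes1, Hes5 and Hey1. They were taken by name, as all probe sets that the platform annotation assigns to these symbols, and gave 17 of the 22626 mouse probe sets on the array. Of the genes, 7 had 2 probe sets and 3 genes, Dll1, Hes1 and Hey1, had 1. The samples were whole whisker pads dissected from mouse embryos at E12.5, when placodes of the vibrissae form, and RNA of each embryo was hybridised to 1 Affymetrix MOE430A array. The groups were homozygous Trps1 mutant (3 embryos) and wild-type (3 embryos), and the labels give neither strain nor sex. Trps1 encodes a zinc finger repressor of the GATA type, and the series asked for its targets in vibrissae. The allele is not described in the labels.

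Notch signalling passes between touching cells. A Delta or Jagged ligand on one cell binds a Notch receptor on its neighbour, the receptor is cleaved by an ADAM protease and then by gamma-secretase, and the freed intracellular domain joins RBPJ and a Mastermind protein in the nucleus to switch on Hes and Hey repressor genes. In developing skin the pathway takes part in epidermal and hair follicle differentiation, and it also acts in blood vessels, in muscle progenitors and in neurogenic epithelia, all of which a whole pad can contain.

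The RBPJ protein binds DNA with the core letters TGGGAA. Promoter windows from RefSeq (GRCm38.p6), 250 bases before to 50 bases after a transcription start, were matched by symbol for 8 of the 10 genes, namely Notch1, Notch2, Notch3, Dll1, Jag1, Jag2, Lfng and Hes5. The windows of Hes5, Lfng and Jag2 are shown because these were the 3 genes at whose brighter probe set no mutant array overlapped a wild-type array. At their second probe sets the groups overlapped. Capitals mark TGGGAA or its reverse complement TTCCCA.
Hes5, chr4:154960673-154960972, plus strand: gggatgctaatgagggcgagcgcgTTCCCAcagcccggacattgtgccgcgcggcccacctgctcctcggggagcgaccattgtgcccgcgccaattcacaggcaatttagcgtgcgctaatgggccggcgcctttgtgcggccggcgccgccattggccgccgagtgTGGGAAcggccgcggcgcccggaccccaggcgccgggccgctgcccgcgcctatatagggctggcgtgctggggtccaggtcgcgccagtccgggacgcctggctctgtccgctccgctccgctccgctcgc
Lfng, chr5:140607091-140607390, plus strand: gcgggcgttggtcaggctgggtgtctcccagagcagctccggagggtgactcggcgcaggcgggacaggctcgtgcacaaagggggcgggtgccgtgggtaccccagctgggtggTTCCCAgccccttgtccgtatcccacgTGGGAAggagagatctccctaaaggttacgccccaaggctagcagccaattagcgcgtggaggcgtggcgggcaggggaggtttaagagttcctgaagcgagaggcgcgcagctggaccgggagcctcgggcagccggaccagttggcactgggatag
Jag2, chr12:112929446-112929745, minus strand: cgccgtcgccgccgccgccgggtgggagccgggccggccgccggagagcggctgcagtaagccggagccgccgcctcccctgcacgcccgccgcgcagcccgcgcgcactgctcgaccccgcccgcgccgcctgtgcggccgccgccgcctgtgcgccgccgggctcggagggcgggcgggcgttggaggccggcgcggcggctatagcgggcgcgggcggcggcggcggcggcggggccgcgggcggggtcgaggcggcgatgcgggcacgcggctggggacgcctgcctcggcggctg
The Hes5 window held the core 2 times, 1 on each strand, and the Lfng window also held it 2 times, 1 on each strand. It was not found in the windows of the other 6 genes, Jag2 included. Among all 32851 RefSeq windows of 300 bases, 25.6% held the core on either strand. The longer form GTGGGAA, which contains the core, was found 2 times for Hes5 and 1 time for Lfng, against 6.4% of all windows with at least 1. The letters CACNAG, an N box to which Hes repressors can bind, were searched on both strands too and were found in 42.5% of all windows. Among the 8 genes they occurred in the windows of Notch1, Notch2, Notch3, Lfng and 1 of the 2 windows of Dll1. A match describes the letters only, and protein binding was not measured.

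The arrays had been scaled to one level before deposit, with median signals of 90.4 to 101.5. Bacillus control probe sets, 27 in number, which should find no target in mouse RNA, read 0.4 to 33.8, and 33.8 is used below as the mark of background. The Trps1 probe set itself read 1297.3, 1491.9 and 1506.7 on the mutant arrays and 807.6, 1061.4 and 748.1 on the wild-type arrays, and with the allele undescribed these values do not check the labels. Both replicate 3 arrays stood apart from the other 4 on the first principal component, which held 28.7% of the variance (31.0 for the mutant and 36.8 for the wild-type array, against -30.8 to -4.9). Wild-type replicate 3 alone read Xist high (461.5, against 44.0 to 93.7) and the Y-linked Eif2s3y low (11.9, against 207.3 to 272.3), so sex was not balanced between the groups. The actin control read 1.35 times as high at its 3' as at its 5' probe set on mutant replicate 3, and 1.07 to 1.19 times on the other 5 arrays. Epidermal keratins and mesenchymal factors were well above background, as in Krt14 at 1070 ± 322 in mutant and 884 ± 288 in wild-type pads and Twist1 at 1350 ± 194 and 1160 ± 33.8 (means ± SD, n = 3 each, in that order). Every difference given is the mutant mean minus the wild-type mean of log2(signal + 16), with standard errors and p-values from limma adjusted by Benjamini-Hochberg over all 22626 probe sets. Signals of different probe sets depend on their probes, so no gene's level is read against another's, and brightness served only to choose probe sets. Since RNA came from whole pads, fewer cells of a type and less RNA per cell cannot be told apart.

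Across the 10 genes little separated mutant from wild-type pads. None of the 17 probe sets passed an adjusted p of 0.05 in limma (0% of all probe sets did), and their adjusted p-values were 0.723 to 1.0. At an unadjusted p under 0.05, 1 probe set, of Hes5, was lower in the mutant (2.37% of all probe sets were) and 0 were higher (2.9% of all). The differences ran from -1.20 to 0.74 with a median of -0.02, against a median of 0.00 over all probe sets, and 8 were above 0 and 9 below. Their median absolute difference was 0.08, against 0.16 over all probe sets, and 2 (11.8%), of Hes5 and Jag1, differed by 1.5-fold or more in either direction, against 5.44% of all. Of the 17, 12 lay above background on all 6 arrays, and the differences of these 12 ran from -0.38 to 0.23. For 11 of the 12 the 95% interval stayed inside 1 log2 unit in either direction. The exception was the first probe set of Jag1, with an interval of -0.90 to 1.27. Because of the offset added before log2, 1 unit is more than a 2-fold change of the signal itself. The intervals of the 11 therefore did not all exclude a 2-fold change of signal, as at the first probe set of Lfng (-0.85 to 0.09).

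**Figure D1:**
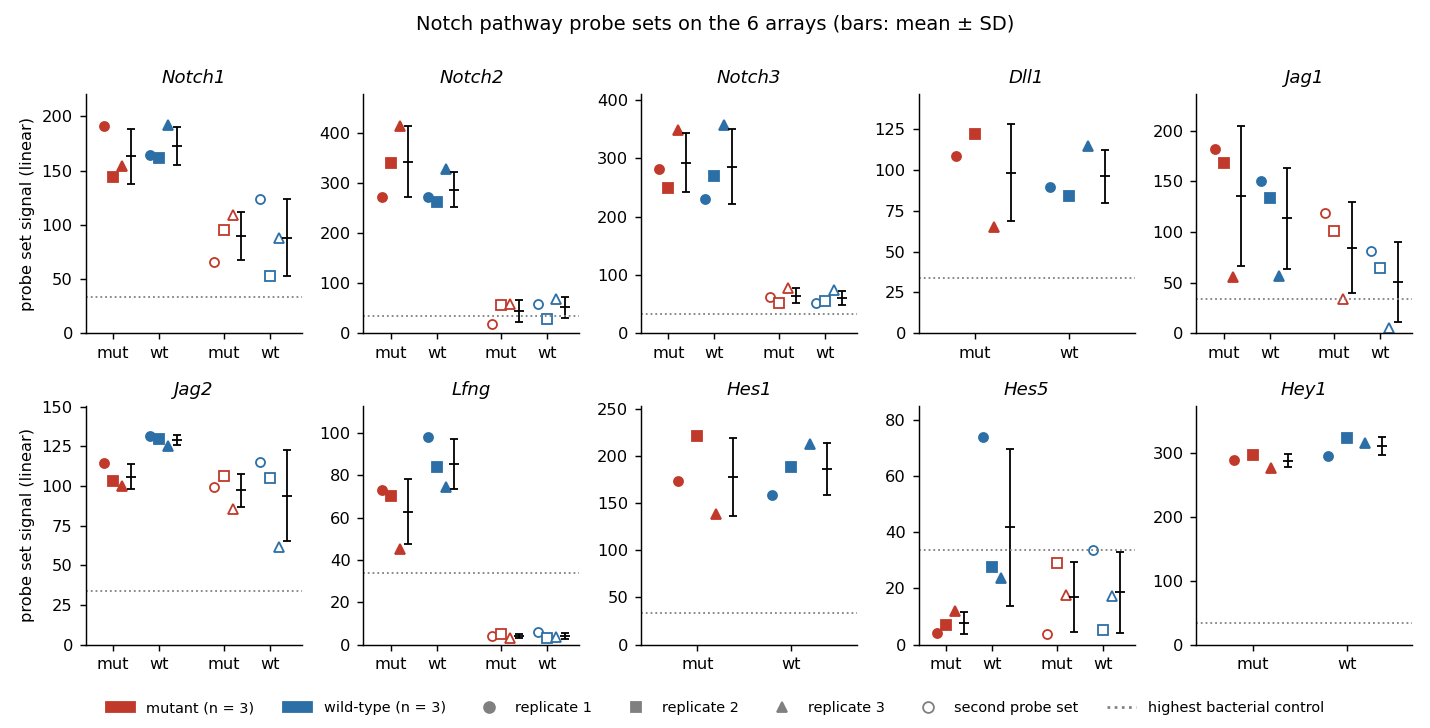
Signal of every probe set of the 10 Notch pathway genes on each array, mutant left of wild-type, with filled symbols for the brighter probe set, open symbols for the second and bars for mean ± SD (n = 3). The vertical axes are linear and start at 0, and the dotted line is the highest bacterial control at 33.8. Mutant values lie wholly below wild-type values at the first probe sets of Jag2, Lfng and Hes5, and both replicate 3 arrays are the lowest at Jag1.

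None of the 3 receptors differed between genotypes by more than the spread between embryos. Notch1, which in skin acts in the suprabasal epidermis, read 191.3, 143.7 and 154.1 on the mutant arrays, against 164.0, 161.4 and 192.3 on the wild-type arrays at its first probe set. The groups overlapped, and the difference was -0.08 (SE 0.17, adjusted p = 0.995). The second Notch1 probe set was more scattered, at 65.3, 95 and 108.7 in mutant and 123.7, 53.0 and 88.0 in wild-type pads, with a difference of 0.06 (SE 0.29), or -0.05 without both replicate 3 arrays.

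Notch2, a broadly expressed receptor, read 272.1, 340.2 and 413.5 in mutant pads, against 271.8, 261.4 and 326.8 in wild-type pads. Of the 3 mutant arrays 2 lay above every wild-type array, and mutant replicate 1 matched wild-type replicate 1. The difference of 0.23 (SE 0.20, adjusted p = 0.993) was the highest of the 10 genes at their brightest probe sets. The dimmer Notch2 probe set, above background on 4 of 6 arrays, had a difference of the opposite sign, -0.19 (SE 0.36). Notch3, the receptor of pericytes and smooth muscle around vessels, read 281.3, 248.5 and 348.1 in mutant and 230.8, 269.6 and 357.1 in wild-type pads. In both groups replicate 3 was the highest, and the difference was 0.04 (SE 0.21, adjusted p = 0.997). It was -0.09 when wild-type replicate 1 was left out and -0.08 when mutant replicate 3 was. Its second probe set differed by 0.07 (SE 0.19), and at each of the 2 probe sets replicate 3 was the highest array of its group.

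Among the ligands, Jag1 varied widely between the embryos of each genotype. Jag1 encodes a ligand of the Jagged type that is present in hair follicle epithelium and in vessels. Its first probe set read 182.3, 167.7 and 55.9 in mutant and 150.2, 133.5 and 56.4 in wild-type pads, so that both replicate 3 arrays held about the same low signal. The difference was 0.18 (SE 0.46, adjusted p = 0.995), and it changed sign when any of wild-type replicate 3 (-0.19), mutant replicate 1 (-0.08) or mutant replicate 2 (-0.03) was left out. The second probe set read 118.4, 101.2 and 33.8 in mutant and 80.8, 64.2 and 5.7 in wild-type pads, a difference of 0.74 (SE 0.61, adjusted p = 0.993). Here too replicate 3 was the lowest of each group, and neither replicate 3 value exceeded the bacterial controls. Without both replicate 3 arrays the differences were 0.28 (SE 0.16, adjusted p = 0.693) at the first and 0.51 (SE 0.19, adjusted p = 0.601) at the second probe set. With 2 arrays left in each group, both mutant arrays then lay above both wild-type arrays at each of the 2 probe sets.

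The summed signal of the epidermis markers was lowest on the same 2 arrays as Jag1. Over 8 genes it was 4048.6, 3744.7 and 2592.8 in mutant and 4470.8, 3082.2 and 2846.5 in wild-type pads. It was also lowest on both replicate 3 arrays without Krt5, the epidermal keratin gene with the widest range. Single genes did not all follow the sum. Both replicate 3 arrays were the lowest at Krt15, Trp63 and Epcam. Krt5 and Krt14 read lower on wild-type replicate 2 (721.7 and 673.3) than on wild-type replicate 3 (831.5 and 765.3). Krt8 was lowest on mutant replicate 2 and Cdh1 on mutant replicate 1, and Krt18 was highest on mutant replicate 3 (178.6). None of the 8 passed an unadjusted limma p under 0.05. The sum of 11 placode markers, 851.8, 1019.0 and 599.6 in mutant and 1216.8, 982.4 and 677.7 in wild-type pads, was lowest on the same arrays through 1 gene. This was Lef1, a transcription factor of Wnt signalling, at 441.6, 482.4 and 96.9 in mutant and 475.9, 300.6 and 112.0 in wild-type pads. The other 10 placode markers summed to 410.2, 536.6 and 502.7 in mutant and 740.9, 681.8 and 565.7 in wild-type pads, so that mutant replicate 1 was the lowest and the groups did not overlap. Of the 11, 3 (Dkk4, Lhx2 and Sox21) were lower and 0 higher in the mutant at an unadjusted limma p under 0.05. Of all 12393 genes, 290 were lower and 334 higher at that p. Dkk4, Lhx2 and Sox21 averaged 53.9, 31.6 and 21.6 in mutant and 111, 91.5 and 80.2 in wild-type pads. The separation of the sum without Lef1 rests on these 3 genes, and over the 11 markers 4 differences were above 0 and 7 below. Lhx2 and Sox21 were each above background on 4 of 6 arrays. The list was chosen with earlier results of these data known, so the separation is not independent support. The part of these markers in the Jag1 values was not tested.

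**Figure D2:**
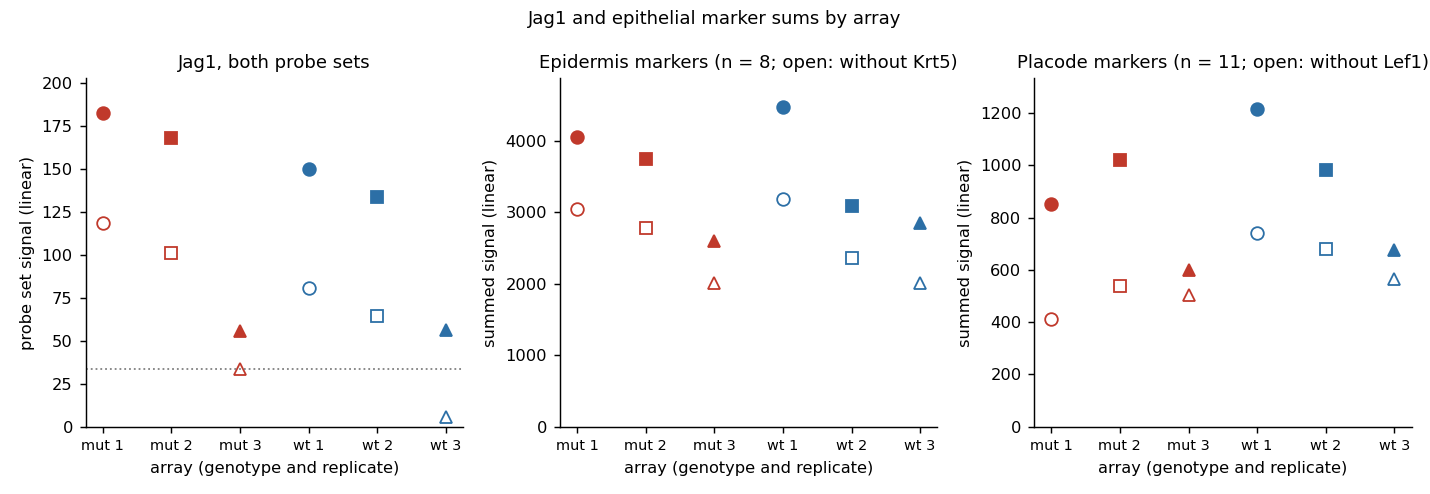
Signal of both Jag1 probe sets (left; filled for the brighter) and summed signals of 8 epidermis and 11 placode markers (middle and right; open symbols leave out Krt5 and Lef1), each on a linear axis from 0, for the 3 mutant and the 3 wild-type arrays. Jag1 and the epidermis sums are lowest at replicate 3 of both genotypes, with Jag1 at 55.9 on the mutant and 56.4 on the wild-type array at the brighter probe set, while the placode sum without Lef1 is lowest at mutant replicate 1 (410.2).

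Jag2, the Jagged ligand of the basal epidermis, was lower on every mutant array at its first probe set, with 114.7, 103.1 and 100.3, against 131.9, 129.5 and 125.4 in wild-type pads. Both groups were tight, at 106 ± 7.64 and 129 ± 3.29 (mutant, then wild-type), and the groups did not overlap. The difference was small, -0.25 (SE 0.14, adjusted p = 0.966), and an exact permutation test gave p = 0.1, the smallest that 3 arrays against 3 allow. With signals floored at 32 in place of the added 16 it was -0.28 (SE 0.06, unadjusted p = 0.00672 and adjusted p = 0.722 in limma). The second Jag2 probe set read 99.7, 106.5 and 85.6 in mutant and 115.0, 105.4 and 61.5 in wild-type pads, with overlapping groups and a difference of 0.07 (SE 0.23), or -0.08 without both replicate 3 arrays. Dll1, a Delta ligand of neurogenic tissue and of muscle progenitors, read 108.5, 121.9 and 64.8 in mutant and 89.6, 84.2 and 114.7 in wild-type pads. The mutant group held both the highest and the lowest array, and the difference was 0.00 (SE 0.24, adjusted p = 1.0). Without both replicate 3 arrays it was 0.35 (SE 0.16, adjusted p = 0.637), since mutant replicate 3 was low and wild-type replicate 3 high.

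Lfng, the fringe glycosyltransferase that lengthens sugar chains on Notch receptors and changes which ligands they respond to, read 73.0, 70.2 and 45.0 in mutant pads, against 98, 83.8 and 74.5 in wild-type pads. The highest mutant value lay just below the lowest wild-type value. The difference was -0.38 (SE 0.20, adjusted p = 0.966), with an exact permutation p = 0.1, and -0.21 without mutant replicate 3. The second Lfng probe set read 2.9 to 4.8 in mutant and 3.1 to 5.7 in wild-type pads, not above background on any of the 6 arrays.

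Of the 3 targets, Hes5 had the widest difference between the groups and read near background. Hes5 is a repressor of the Hes family that holds progenitors of neurogenic tissue undifferentiated. Its first probe set read 4.0, 7.1 and 11.9 in mutant pads, against 74.0, 27.7 and 23.6 in wild-type pads, so every wild-type array lay above every mutant array. Wild-type replicate 1 was the only one of the 6 arrays above the bacterial controls. The difference was -1.20 (SE 0.32, unadjusted p = 0.00693 and adjusted p = 0.723 in limma), and an exact permutation test gave p = 0.1. Its size follows the treatment of dim signals, at -2.22 with 1 in place of 16 added to the signal and -0.40 (SE 0.38) with signals floored at 32. The second Hes5 probe set read 3.9, 29.0 and 17.7 in mutant and 33.8, 5.0 and 17.3 in wild-type pads, with a difference of -0.07 (SE 0.39) and none of the 6 arrays above the bacterial controls.

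By the threshold the study states, an unadjusted p of at most 0.05 with a fold of at least 1.5, 1 of the 17 probe sets was called, the first of Hes5, against 1.59% of all probe sets. That call was lost on leaving out wild-type replicate 2 or any of the 3 mutant replicates (0 of 17 in each case). The authors' deposited table of 65 probe sets lists 0 of the 17.

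Hes1 and Hey1, which are the Hes and Hey genes with a signal well above background among the 3 targets, overlapped between genotypes. Hes1, whose protein represses its own gene as well as proneural genes, read 173.8, 220.9 and 137.8 in mutant and 158.1, 188.1 and 212.9 in wild-type pads. The mutant group again held the highest and the lowest array. The difference was -0.08 (SE 0.21, adjusted p = 0.995) and turned positive when wild-type replicate 3 (0.02), mutant replicate 3 (0.08) or both (0.17) were left out. Hey1, a related repressor of developing vessels and mesenchyme, varied little between embryos, at 289.4, 297.2 and 277.2 in mutant and 295.9, 323.2 and 316.2 in wild-type pads. The groups overlapped by 1 array each, with a difference of -0.11 (SE 0.14, adjusted p = 0.995, 95% interval -0.44 to 0.22).

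**Figure D3:**
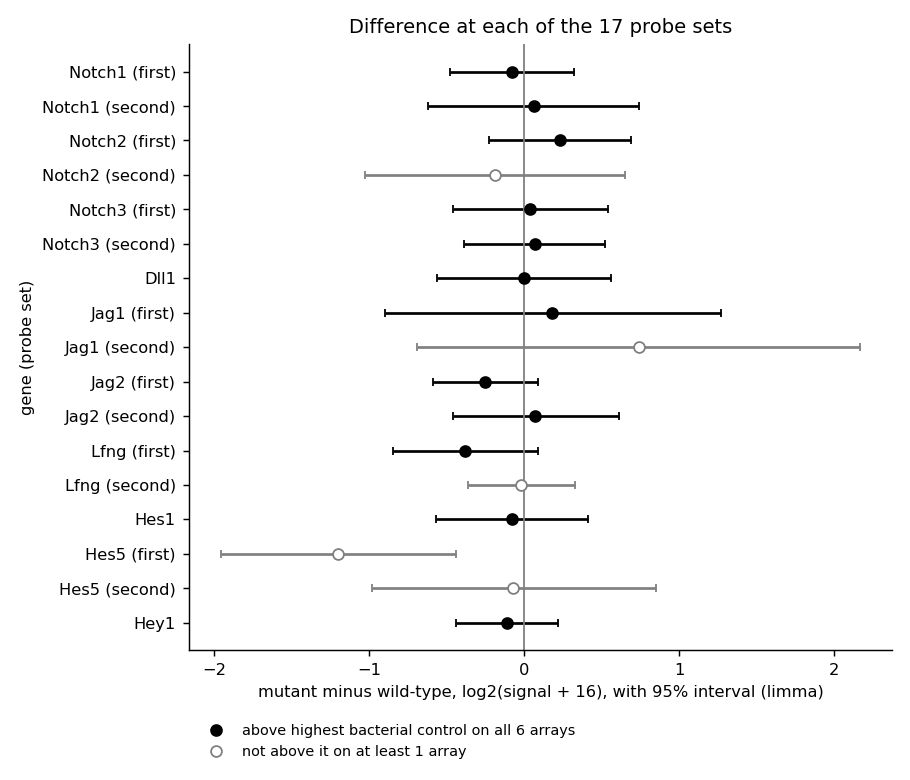
Difference between mutant and wild-type pads at each of the 17 probe sets on the log2(signal + 16) scale, with 95% intervals from limma (n = 3 per group), filled where all 6 arrays lie above the highest bacterial control. The interval excludes 0 at 1 probe set, the first of Hes5, which is not above the controls on all arrays.

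Probe sets without overlap between the groups were thus the first ones of Jag2, Lfng and Hes5, all lower in the mutant. They made 17.6% of the 17 probe sets, where 4.76% of all probe sets were lower without overlap. None of the 17 was higher without overlap, against 5.41% of all. For these 3 genes the second probe set gave no matching separation, since that of Jag2 overlapped and those of Lfng and Hes5 were not above background. Of the 7 genes with 2 probe sets, the differences had the same sign in 4 (Notch3, Jag1, Lfng and Hes5) and opposite signs in 3 (Notch1, Notch2 and Jag2).

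The rest of the pathway was followed in 48 further genes of the 55 listed, in 6 groups by role. At their brightest probe sets 24 were above 0 and 24 below, with a median of 0.02, against 0.00 over all 12393 genes. None passed an adjusted p of 0.05 (0% of all genes did). At an unadjusted p under 0.05 there was 1 of 48, where 5.04% of all genes in either direction passed. This was Psen2, a catalytic presenilin of gamma-secretase, at 105.8, 95.1 and 77.4 in mutant and 81.1, 51.1 and 49.5 in wild-type pads. The groups overlapped at 1 array, and the difference was 0.52 (SE 0.21, limma unadjusted p = 0.0403). Its other probe set had a difference of the opposite sign, -0.31 (SE 0.28). The count of 1 became 6 without mutant replicate 3, 2 without wild-type replicate 1, and 0 without wild-type replicate 3, mutant replicate 1 or mutant replicate 2. Without mutant replicate 3 the share of all probe sets at that p was 7.8%, against 5.27% with all arrays.

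Each role held values on both sides of 0. Other receptors and ligands (5 genes) had a median of 0.10, with the endothelial receptor Notch4 at 0.34 (SE 0.19). Glycosyltransferases (4 genes) had a median of -0.14, and Rfng, a fringe enzyme like Lfng, read 248.6, 210.5 and 222.7 in mutant and 264.3, 263.1 and 353.0 in wild-type pads, without overlap and with a difference of -0.34 (SE 0.18). Mfng, the remaining fringe gene, differed by -0.23 (SE 0.17) with overlapping groups. The proteases (7 genes) had a median of 0.10. Of the 7, 3 were below 0, Ncstn at -0.21 (SE 0.19), Psenen at -0.14 (SE 0.16) and Aph1a at -0.11 (SE 0.34). The other 4 were above 0. Of these, Adam10, the protease that makes the first cut, at 0.27 (SE 0.17) and Furin, which cleaves the receptor on its way to the surface, at 0.31 (SE 0.15), were higher without overlap. Nuclear partners and corepressors (14 genes) had a median of -0.02, where the DNA-binding partner Rbpj differed by -0.07 (SE 0.15) and the histone deacetylase Hdac1 by -0.42 (SE 0.22). Ubiquitin ligases and endocytic adaptors (10 genes) had a median of 0.02, with Dtx3, a Deltex ligase, at 0.54 (SE 0.24), Dtx2 at 0.33 (SE 0.16) and higher without overlap, and Numbl, a relative of the Notch inhibitor Numb, at -0.40 (SE 0.19) and lower without overlap. Further Hes and Hey genes and direct targets (8 genes) had a median of 0.05, with the smallest p at Hes3, at 0.44 (SE 0.27) and above background on 2 of 6 arrays. The Notch target Nrarp, a feedback inhibitor, read 535.1, 460.4 and 301.5 in mutant and 425.0, 338.7 and 400.8 in wild-type pads, a difference of 0.12 (SE 0.23). Over the 48 genes, 3 were higher without overlap (Adam10, Furin and Dtx2), where 5.54% of all genes were, and 2 were lower without overlap (Rfng and Numbl), where 4.83% of all genes were. These shares are near the background. Adam10, Furin, Ncstn, Psenen, Aph1a, Mfng, Dtx2, Numbl, Rbpj and Nrarp were named after their values were seen.

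**Figure D4:**
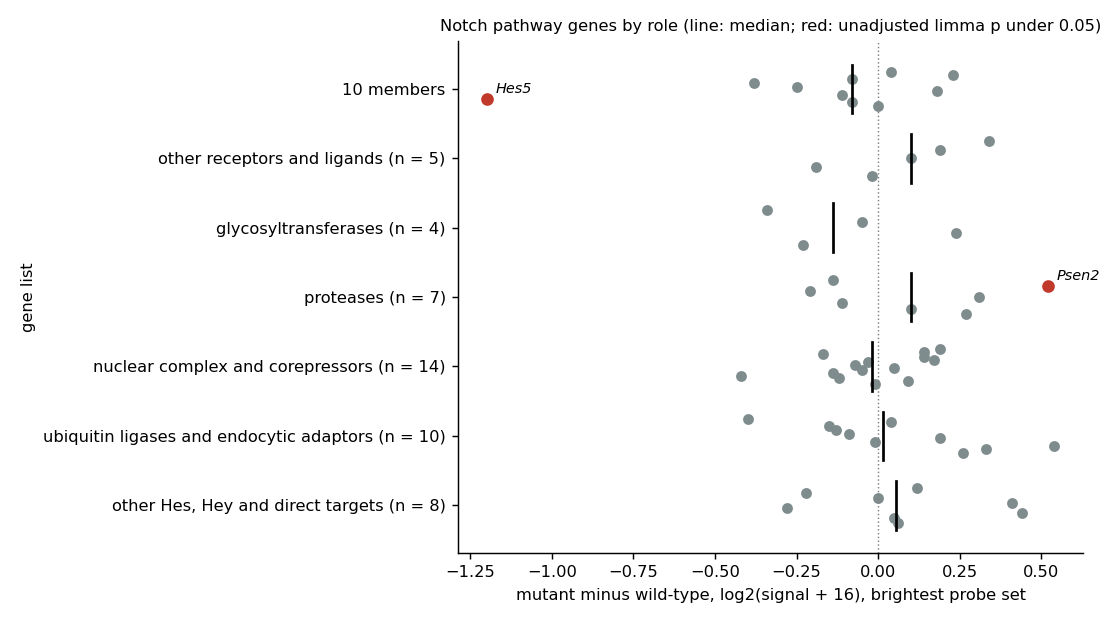
Difference between mutant and wild-type pads for the 10 genes and for 48 further Notch pathway genes by role, 1 point per gene at its brightest probe set on the log2(signal + 16) scale, with the median of each list as a line. Hes5 at -1.20 and Psen2 at 0.52 are the genes with an unadjusted limma p under 0.05, shown in red.

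Markers of the cell types in which these genes act were summed over each array. The neurogenic and nasal epithelium markers, the setting of Hes5 and Dll1, summed to 616.0 to 691.3 in mutant and 634.7 to 706.8 in wild-type pads over 10 genes. Of these, 4 were above 0 and 6 below with a median of -0.16, and the zinc finger gene Insm1 was lower without overlap (-0.63, SE 0.24, limma unadjusted p = 0.0304). Of the 10, 2 were above background on all 6 arrays, and 3 had both group means at or under background. The proneural gene Neurog1 was above background on 2 of 6 arrays. Without Ebf1, the gene with the widest range, the sums were 313.7 to 479.1 in mutant and 350.3 to 470.9 in wild-type pads. The endothelial markers, the setting of Notch1, Jag1 and Hey1, summed to 1673.1 to 2092.2 in mutant and 2154.5 to 2479.1 in wild-type pads over 13 genes. That the sums did not overlap rests on the vessel factor Sox18, at 312 ± 98 in mutant and 626 ± 128 in wild-type pads (SD, n = 3 each), since the other 12 genes summed to 1452.3 to 1746.9 in mutant and 1575.9 to 1711.6 in wild-type pads. The median over the 13 was -0.05 with 6 above 0 and 7 below. The mural cell markers, the setting of Notch3, summed to 1016.5 to 1167.3 in mutant and 1016.1 to 1119.9 in wild-type pads over 8 genes, 3 below 0 and 5 above. Muscle progenitor markers summed to 578.8 to 817.8 in mutant and 518.3 to 687.0 in wild-type pads over 8 genes, 4 of them with both group means at or under background. Myog was higher without overlap (1.01, SE 0.25, limma unadjusted p = 0.00474) and above background on 1 of 6 arrays. Tcf21 was lower without overlap (-0.84, SE 0.23, limma unadjusted p = 0.00775) and above background on 0 of 6 arrays. The neuron markers lay on both sides of 0, with 5 above and 5 below and a median of 0.06. Their sum (10 genes) was 2667.0 to 3041.7 in mutant and 2111.2 to 2265.7 in wild-type pads, and without Stmn2, the gene with the widest range, it was 1683.4 to 1894.8 in mutant and 1489.2 to 1604.5 in wild-type pads. Of the axon cytoskeleton genes, Stmn2 (0.78, limma unadjusted p = 0.00137) and Nefm (1.05, limma unadjusted p = 0.00354) were higher without overlap. Nefl differed by 0.67 (limma unadjusted p = 0.0309) with overlapping groups. The neuronal RNA-binding protein gene Elavl3 was lower without overlap (-1.30, limma unadjusted p = 0.00753) and above background on 4 of 6 arrays. The Schwann and melanoblast markers (6 genes) had a median of -0.01 and summed to 772.7 to 803.0 in mutant and 901.1 to 1061.6 in wild-type pads. Without the neurotrophin receptor gene Ngfr (-0.79, SE 0.22, limma unadjusted p = 0.00735) the sums overlapped, at 539.1 to 606.8 in mutant and 548.5 to 649.2 in wild-type pads. Fabp7 was also lower without overlap (-0.54, SE 0.18, limma unadjusted p = 0.0196). Sox10, Erbb3 and Foxd3 differed by -0.02 to 0.00 and Mitf by 0.18 (SE 0.18). Sums without 1 gene were added after the data had been seen. Mesenchyme markers (9 genes) overlapped at 12261.3 to 14682.3 in mutant and 12247.2 to 13001.7 in wild-type pads. The part of these cell types in the values of the Notch genes was not tested.

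The brightest receptor, ligand and target probe sets were set against 4757 or 4758 other genes with a mean signal of at least 200 by Pearson correlation over the 6 arrays. With so many genes and 6 arrays, high coefficients are found for any profile, and they are given as a description. Jag1 was most like Cbx5 (r = 0.995), Nolc1 (0.993) and Slf2 (0.992), each of which was lowest on both replicate 3 arrays. Cbx5, a heterochromatin protein gene, read 1121.1, 1093.4 and 739.9 in mutant and 1099.8, 1010.4 and 732.5 in wild-type pads. Notch2 was most like Cenpf (0.974), Rrp1b (0.974) and Rev3l (0.969). Hey1 was most like Cops6 (0.980), Zfand3 (0.976) and St3gal2 (0.952).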

How the data were processed

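Biotin-labelled cRNA of 6 whisker pads was hybridised to one-colour Affymetrix arrays, per the labels. The values the authors deposited are linear intensities, 1 for each probe set on each array. All arrays share a 2% trimmed mean of 250.1. How probes were summarised is not given in the labels or headers. A second deposited table lists 65 probe sets by fold (a ratio), with log2 values of both groups, and was made in GeneSpring GX per the design text. It served here only to look up the 17 probe sets.

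After removal of 64 control probe sets, 16 was added to the deposited intensities before log2, which pulls differences of dim probe sets toward 0. Groups and replicate numbers came from the titles. No pair of arrays shared more than 0.357% equal signals. Gene names came from the platform annotation, where 20380 probe sets had 1 gene, 691 several and 1555 none, and matched symbols of GRCm38.p6. A gene's brightest probe set is the one with the highest mean over the 6 arrays. Both genotypes were compared in limma 3.58.1 (two-sided lmFit and eBayes fit in R 4.3.3) over all probe sets without covariates, and the program was tested on simulated data. The study's own threshold used an unpaired test of equal variance. With 3 arrays per group, precision is limited by their number.

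The members and gene lists were chosen with earlier results of these data known. Besides the 10 members, the naming rule took list genes with an unadjusted p under 0.05 (up to 3 per marker list) or else the smallest p of a pathway list. It also took the 3 genes most correlated with the brightest receptor, ligand and target. Marker genes shown to describe a tissue, and genes stated to be outside the rule, were named after their values were seen. Not every marker gene the rule took is printed. Alternatives were another offset or a floor, quantile or median scaling, removal of the 7542 dimmest probe sets, other variance priors, weights for arrays, a block for the replicate number, leaving out arrays and 1 probe set per gene.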

Additional observations from a re-analysis of the deposited data

How the results depend on the processing

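Over 16 alternatives 0 of the 17 probe sets passed an adjusted p of 0.05, and the lowest adjusted p was 0.503, for Hes5 with array weights. Not all 17 were fitted without the dimmest probe sets or with 1 probe set per gene. The differences of Notch2, Jag2, Lfng, Hes5 and Hey1 at their brightest probe sets kept their sign in every alternative that gave a value, while Hes5 had none among the brighter probe sets because it was one of the 7542 left out. Leaving out 1 array gave 0.09 to 0.38 for Notch2, -0.30 to -0.22 for Jag2, -0.48 to -0.21 for Lfng, -1.42 to -0.83 for Hes5 and -0.14 to -0.08 for Hey1. It gave -0.19 to 0.00 for Notch1, -0.09 to 0.20 for Notch3, -0.15 to 0.23 for Dll1, -0.19 to 0.65 for Jag1 and -0.24 to 0.08 for Hes1. Sign changes outside these were 0.03 for Notch1 and 0.17 for Hes1 without both replicate 3 arrays, and 0.04 for Hes1 with array weights. The cause was not tested.

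Counts at an unadjusted p moved as follows. Probe sets higher in the mutant numbered 1 (the second of Jag1) with the replicate block and 1 without both replicate 3 arrays, against 0. Probe sets lower in the mutant numbered 0 without the dimmest probe sets, against 1, and with the floor of 32 the 1 was the first of Jag2 in place of Hes5. The study's threshold called 0 with the floor of 32, without the dimmest probe sets, with the replicate block and without both replicate 3 arrays, and 0 to 1 on leaving out 1 array. Other pathway genes numbered 2 with the floor, 2 without the dimmest probe sets, 3 with the trended prior, 2 with array weights, 3 with the replicate block, 2 without both replicate 3 arrays and 0 to 6 on leaving out 1 array. The share of all probe sets at an unadjusted limma p under 0.05 moved too, from 5.27% in the main fit. It was 6.91% with array weights, 7.8% without mutant replicate 3 and 8.21% without both replicate 3 arrays. In the other alternatives it was 4.64% to 5.72%. The labels do not say that a shared replicate number pairs embryos. Deviations from the group means correlated by 0.038, 0.069 and 0.136 for replicates 1, 2 and 3 over all probe sets and by 0.139, 0.284 and 0.325 over the 6551 probe sets with a mean log2 value above 8, and 5 of the 6 arrays correlated best with their own number. With the replicate block the second probe set of Jag1 differed by 0.74 (SE 0.21, unadjusted p = 0.015 and adjusted p = 0.796 in limma), against an unadjusted p = 0.265 without it, and the mutant minus wild-type differences at replicates 1, 2 and 3 were 0.47, 0.55 and 1.20. Probe sets under 33.8 are limited by background.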

Other observations

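Mutant replicate 3 was the lowest of the 6 arrays at 7 of the 17 Notch probe sets, among them those of Dll1, Hes1 and Hey1 and the first ones of Jag1, Jag2 and Lfng, where it was the lowest at 22.1% of all mouse probe sets. Wild-type replicate 1 was the highest of the 6 arrays at 7 of the 17, with Hes5 at 74.0 among them, where it was the highest at 12.2% of all mouse probe sets. The spread within a group differed widely between these genes. The coefficient of variation at the brightest probe set was 51.1% in mutant and 44.1% in wild-type pads for Jag1, and 3.5% and 4.55% for Hey1 in that order.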
